A study of Mus musculus with 12 samples.

Results

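The comparison described here set wild type mouse macrophages given 4-octyl itaconate (4-OI) against wild type macrophages given vehicle. The cells were bone marrow derived macrophages (BMDMs), grown for 7 days from mouse bone marrow in medium with macrophage colony stimulating factor (M-CSF). 3 groups of wild type cells are used below: 4-OI at 120 µM for 15 h, vehicle for 12 h, and hemin at 15 µM for 12 h, each with 3 RNA-seq libraries. The 6 libraries of the 4-OI and vehicle groups were taken by the treatment named on each, out of 12 libraries in the series. The remaining 3 libraries, from vehicle-treated Irg1KO cells, entered the low-count filter, the scaling and the estimate of spread, and their levels are not given below. No group carried an added stimulus such as lipopolysaccharide in the labels. The hours differed between the 4-OI group and both others, so the compound and the 3 additional hours cannot be told apart in any value below. Nothing in the labels tells if replicates came from separate mice or cultures, so p-values measure the spread between these libraries, which may be technical.

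Itaconate is made in mitochondria from cis-aconitate by the enzyme encoded by Acod1, also called Irg1, and macrophages make it in quantity after an inflammatory stimulus. 4-OI is an ester of itaconate whose octyl chain lets it enter cells. Both can alkylate cysteines, among them cysteines of KEAP1, the adaptor that sends the transcription factor NRF2 (gene Nfe2l2) for degradation. When KEAP1 is modified NRF2 accumulates, pairs with a small MAF protein and binds antioxidant response elements (AREs) at genes for glutathione synthesis, thioredoxin recycling, NADPH supply and detoxification. BACH1 occupies many of the same elements as a repressor and leaves them when it binds heme. Type I interferon acts in macrophages by a separate route, through JAK kinases, STAT2 and IRF9, on interferon-stimulated response elements (ISREs). M-CSF keeps these cells dividing and alive in culture.

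Counts per library ranged from 9868424 to 22390882 in the 6 libraries, which list 15513 genes between them. Levels below are CPM, counts scaled to a common library total, after edgeR's TMM scaling unless they are named as FPKM, and a change is a log2 fold change of 4-OI over vehicle. A gene is called changed where its p from edgeR's quasi-likelihood test, Benjamini-Hochberg adjusted over all 12148 genes tested, was under 0.05. The summed level of 8 macrophage markers, most of it from Lyz2, was 25181 to 26914 CPM in the 4-OI libraries and 22703 to 23393 CPM in the vehicle libraries, and without TMM scaling the ranges overlapped, at 23901 to 25421 and 23720 to 24355. Of the 8, Lyz2 and Itgam were called higher and Fcgr1 and Cd14 lower. Csf1r, the M-CSF receptor, lay at 2346, 2295 and 2327 CPM with 4-OI and at 2111, 2374 and 2134 CPM with vehicle, and was not called. Among 10 stromal markers 8 were present in all 6 libraries, most of all Col1a1, Col1a2 and Sparc, while Dcn and Lum were at or near 0. The stromal sum was 1938 to 2137 CPM with 4-OI and 1714 to 2111 CPM with vehicle, but members moved within it: Sparc and Pdgfrb rose by 0.28 and 0.47, and Postn and Cxcl12 fell, at -0.60 and -0.99. The 8 endothelial markers summed to 42.1 to 43.9 CPM with 4-OI and 37.2 to 41.7 CPM with vehicle, and here too single members moved in opposite directions. Esam, an adhesion molecule of cell junctions, read 0.298, 0.692 and 0.262 CPM with vehicle and 32.0, 32.7 and 31.1 CPM with 4-OI, at 6.08 (SE 0.18). Kdr, a receptor for vascular endothelial growth factor, fell from 28.1, 30.9 and 26.8 CPM to 4.60, 5.51 and 4.83 CPM, at -2.52 (SE 0.11), and Cdh5 fell too, at -1.45, while Pecam1, Vwf and Emcn were under 3 CPM in each library and not called. The part of stromal or endothelial cells in the values below was not tested. The markers of T cells, B cells, NK cells, mast cells, erythroid cells, dendritic cells and epithelium each summed to under 6 CPM in every library. In bulk RNA, fewer cells of a type and less RNA per cell cannot be told apart.

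Called genes were nearly even in number by direction. With 4-OI 3083 genes were higher (25.4% of those tested) and 3043 were lower (25.0%). Of these, 442 genes were higher by at least 2-fold (3.64%) and 524 were lower by at least 2-fold (4.31%). The libraries of the 2 groups did not overlap for 6868 genes, or 56.5%. The median log2 fold change over all tested genes was -0.0031. On the scale of the deposited FPKM values, as log2(FPKM + 1), that median was -0.105, the median of the shifts gene by gene was -0.132, and the called genes split into 1743 higher and 4608 lower, or 27.4% higher against 50.3% on the TMM scale. Small rises therefore depend on the scaling. Counts of called list members on that FPKM scale are given below where a count moved by more than 1.5 times or the majority changed, and for some other lists.

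**Figure D1:**
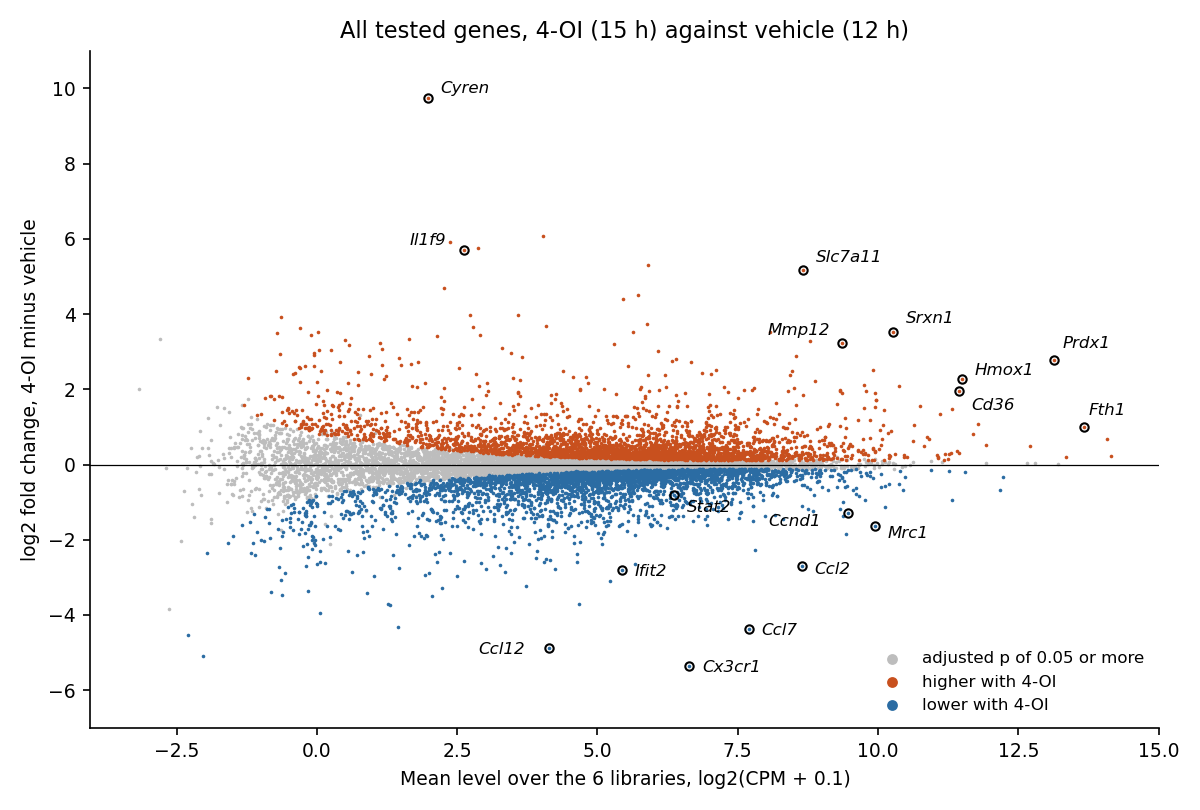
Each point is 1 of the 12148 tested genes: the x axis is the mean level over the 6 libraries as log2(CPM + 0.1), and the y axis is the log2 fold change of 4-OI over vehicle. Orange points were called higher, blue points lower and grey points neither; Cyren, with no vehicle counts, has a fitted value that is no bound, Prdx1, Fth1 and Cd36 stand at the abundant end of the rises, and Cx3cr1, Ccl7 and Ccl12 at the bottom of the falls.

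The glutathione and thioredoxin lists were higher with 4-OI: 15 of 23 tested glutathione genes rose and 2 fell, and 9 of 10 thioredoxin genes rose and 1 fell. Cystine enters through the antiporter encoded by Slc7a11 and is reduced to cysteine, which glutamate-cysteine ligase (Gclc and Gclm) and glutathione synthetase (Gss) build into glutathione. Slc7a11 read 22.6, 21.2 and 22.2 CPM in the vehicle libraries and 775, 775 and 823 CPM in the 4-OI libraries. Its groups lay far apart, and its log2 fold change was 5.17 (SE 0.12) with an adjusted p of 1.89e-11, although its expected counts were not whole in any of the 6 libraries, so part of its reads were shared with other transcripts. Slc3a2, which encodes the partner chain of the same antiporter, stood at a log2 fold change of 0.16. The counts of Slc3a2, Gpx4, Gstp1, Hmgcs1, Eno1 and Tyms, which are given below, were likewise not whole in any of the 6 libraries.

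Gclc rose from 90.7, 85.5 and 90.8 CPM with vehicle to 639, 671 and 649 CPM with 4-OI, a log2 fold change of 2.88 (SE 0.053) and an adjusted p of 1.19e-31. Its regulatory partner Gclm went from 336, 308 and 321 to 1328, 1429.5 and 1453 CPM, at 2.13 (SE 0.052). Gss went from 25.6, 27.4 and 26.8 to 175, 179 and 173 CPM, at 2.72 (SE 0.06). All 3 enzymes of the synthesis route were thus higher by over 2-fold, and in each the lowest 4-OI library was above the highest vehicle library. The transporters that carry glutathione conjugates out of the cell were also higher in 4 of 4 tested cases, with Abcc1 at 1.89, Abcc4 at 1.25, Abcc3 at 1.00 and Abcc5 at 0.93. Of the 9 tested genes that recycle or spend glutathione 3 were higher and 2 lower, beside 25.4% and 25.0% of all tested genes. None reached 2-fold, beside 3.64% higher and 4.31% lower by that much among all tested genes. Gpx4, the peroxidase that reduces lipid peroxides in membranes, stood at 0.46, while Gpx1, the main cytosolic peroxidase, fell by 0.27 and Gpx3, the secreted form, fell by 0.59 on the log2 scale.

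Peroxiredoxin 1 carried the largest gain in CPM among called genes, with provisional gene names left out. Prdx1 read 2221, 2417 and 2264 CPM in the vehicle libraries and 16035, 15596 and 15525 CPM in the 4-OI libraries, at a log2 fold change of 2.77 (SE 0.055) and an adjusted p of 9.82e-31. Every 4-OI library held over 6 times the level of any vehicle library. Sulfiredoxin (Srxn1), which restores over-oxidised peroxiredoxins, went from 182, 215 and 193 to 2298, 2282 and 2233 CPM, at 3.53 (SE 0.061). Thioredoxin reductase 1 (Txnrd1) rose by 1.72 (SE 0.051) and its substrate thioredoxin (Txn1) by 0.63. Prdx6, which also reduces phospholipid peroxides, rose by 1.35, whereas Prdx4, the peroxiredoxin of the endoplasmic reticulum, fell by 0.30. Catalase (Cat) rose from 479.6, 522 and 509.6 to 2176, 2115 and 2142 CPM, at 2.09 (SE 0.05), beside 0.46 for the superoxide dismutase Sod1.

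**Figure D2:**
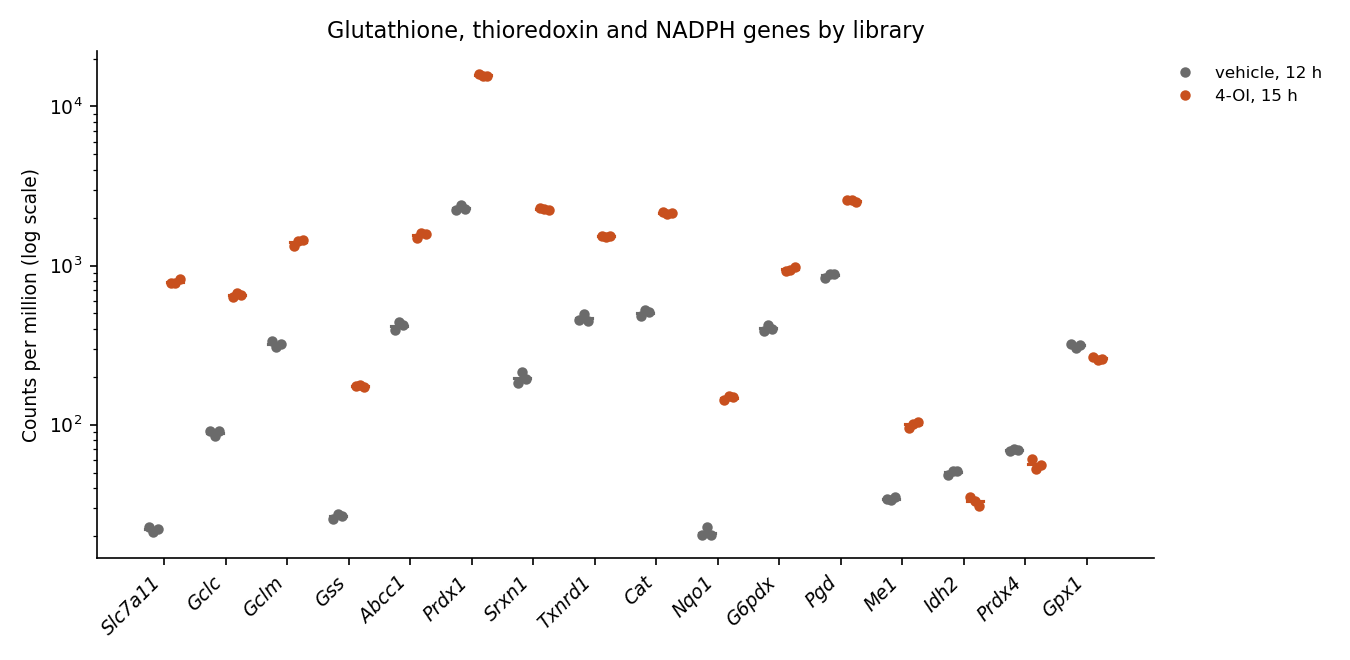
CPM on a log axis for 16 genes of glutathione, thioredoxin and NADPH metabolism, with 1 point per library (grey vehicle, orange 4-OI) and a bar at each group mean. The points of the groups are apart for each gene from Slc7a11 to Me1, with 4-OI on top, and the last 3 genes (Idh2, Prdx4 and Gpx1) have 4-OI below vehicle. The 16 genes were picked for the figure, and the groups did not overlap for 56.5% of all tested genes.

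Detoxifying enzymes rose in a subset of each family. Of 16 tested glutathione transferases 8 were higher and none was lower, although on the FPKM scale 8 were higher and 4 lower. Gsta3 read 13.4, 16.1 and 15.1 CPM with vehicle and 124, 121 and 117 CPM with 4-OI, at 3.01 (SE 0.092). Mgst2, a microsomal family member, rose from 0.986 to 12.6 CPM, Gstp1 from 36.6 to 131 CPM and Gstm1 from 92.3 to 253 CPM, while Gstz1, Gstk1, Gstm5 and Mgst3 had log2 fold changes of -0.16, -0.08, 0.05 and -0.12 and were not called. In the detoxification list 17 of 31 tested genes were higher and 4 lower, and 15 and 9 on the FPKM scale, with 8 higher and 3 lower among 18 quinone and carbonyl reductases (8 and 6 on the FPKM scale). Nqo1, the quinone reductase that serves as a standard readout of NRF2, read 20.1, 22.7 and 20.2 CPM with vehicle and 142, 152 and 149.7 CPM with 4-OI. Ptgr1, which reduces reactive alkenals and prostaglandins, rose from 81.2 to 797 CPM, a log2 fold change of 3.29 (SE 0.076), and Cbr3 and Akr1b8 rose by 2.01 and 1.95. Cbr2 and Dhrs3, from the same class of reductases, fell by 0.66 and 0.64.

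Genes that supply NADPH split by route. All 4 tested genes of the oxidative pentose phosphate branch were higher: Pgd by 1.55 (SE 0.049), G6pdx by 1.24 (SE 0.049), H6pd by 1.23 and Pgls by 0.21, and on the FPKM scale 3 of the 4 were. G6pdx, the enzyme that commits glucose to the branch, read 389.9, 423 and 398 CPM with vehicle and 929, 939.9 and 984 CPM with 4-OI, with no overlap. Taldo1 and Tkt, which return its sugars to glycolysis, rose by 1.46 and 0.73. Among other sources the cytosolic enzymes Me1 and Idh1 rose by 1.56 and 0.71. The mitochondrial enzymes Idh2, Nnt and Me2 fell by 0.60, 0.51 and 0.42. The cytosolic NAD kinase Nadk and the cytosolic folate enzyme Mthfd1 fell too, by 0.50 and 0.20, while the mitochondrial folate enzyme Mthfd1l rose by 0.29. In the list of other NADPH sources 3 of 10 were higher and 5 lower, with a median log2 fold change of -0.24.

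Of 14 genes that control NRF2 9 were higher and 2 lower (7 and 3 on the FPKM scale), and 2 of them, Sqstm1 and Bach2, changed by at least 2-fold. Nfe2l2 itself read 196, 209 and 203 CPM with vehicle and 226, 237 and 245 CPM with 4-OI, a log2 fold change of 0.22 (SE 0.046), and Keap1 at 0.12 was not called. The small MAF partner genes Mafg, Mafk and Maff stood at 0.46, 0.33 and 0.73. Bach1, the heme-sensing repressor, rose by 0.50 (SE 0.05), and its relative Bach2 fell by 1.91 from a low level of 2.87 CPM. Sqstm1, which encodes the autophagy adaptor p62 that can draw KEAP1 away from NRF2, rose from 336, 391 and 361 to 1396, 1392 and 1404 CPM, at 1.95 (SE 0.055). Acod1, the gene of the itaconate enzyme, read 27.5, 30.5 and 25.0 CPM with vehicle and 32.7, 42.0 and 32.1 CPM with 4-OI and was not called (log2 fold change 0.36, adjusted p 0.269). Clybl, the mitochondrial enzyme that splits citramalyl-CoA at the end of itaconate breakdown, fell by 0.66.

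The promoters of these genes were searched for the ARE core, TGACNNNGC, on both strands, because that element is where NRF2 is known to bind. Windows of 300 bases, from 250 before to 50 after each start site, came from RefSeq (build GRCm38.p6). Across the glutathione, thioredoxin, transferase, detoxification and NADPH lists 32 genes were higher by at least 2-fold, and 26 of them had a window. The core was in 10 of these 26 (38.5%), against 17.1% of the 9697 tested genes with a window. It was in 16 of the 84 tested members of the same lists with a window, the 26 included. Over all genes higher by at least 2-fold it was in 58 of 327 (17.7%), close to the share of tested genes, and it was in 22.5% of the interferon effectors. In Srxn1, Pgd and Me1 it reached or followed the start site. The other 7 are shown 5′ to 3′ on the strand that carries the motif, with the core in capitals, and Abcc4 has a core before each of 2 start sites, of which the first is shown.
Prdx1, chr4:116685456-116685484, minus strand: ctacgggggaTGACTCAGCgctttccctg
Gclm, chr3:122245413-122245441, minus strand: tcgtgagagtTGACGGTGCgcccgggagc
Txnrd1, chr10:82859104-82859132, minus strand: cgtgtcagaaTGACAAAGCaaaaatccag
Mgst1, chr6:138140461-138140489, minus strand: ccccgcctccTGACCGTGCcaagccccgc
G6pdx, chrX:74428919-74428947, plus strand: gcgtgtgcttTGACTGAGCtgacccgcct
Abcc4, chr14:118676936-118676964, minus strand: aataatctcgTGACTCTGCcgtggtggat
Gsta3, chr1:21240454-21240482, plus strand: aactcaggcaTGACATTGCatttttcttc
A match is a description of letters in the window and not a binding site. Distances from the end of the core to the start site ran from 14 bases in Abcc4 to 125 bases in Gclm. The 250 bases before the start of Prdx1, first in CPM gained among the genes ranked, hold 1 core. It lies on the opposite strand and so reads here as its reverse complement in capitals (GRCm38.p6 chr4:116685349-116685598, plus strand).
Prdx1, 250 bases before the start: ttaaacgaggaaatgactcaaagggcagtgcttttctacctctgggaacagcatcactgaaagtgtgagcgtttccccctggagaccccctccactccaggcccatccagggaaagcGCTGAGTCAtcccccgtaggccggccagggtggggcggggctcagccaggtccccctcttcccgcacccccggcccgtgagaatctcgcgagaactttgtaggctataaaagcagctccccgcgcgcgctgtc

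Among heme and iron genes the larger rises were in heme breakdown and in iron storage and export. Hmox1, heme oxygenase 1, read 966, 1087 and 946 CPM with vehicle and 4776, 4836 and 4762 CPM with 4-OI. Blvrb, which reduces biliverdin, rose by 1.21 (SE 0.054) and Slc48a1, the heme importer of the lysosome membrane, by 0.96 (SE 0.056). The ferritin chains store iron inside a protein shell. Fth1 read 9089.9, 9281 and 7795 CPM with vehicle and 17947, 17254 and 17037 CPM with 4-OI, and Ftl1 read 13561, 13110.0 and 13308 and 21778, 21442 and 20833 CPM. Their log2 fold changes were 1.00 (SE 0.065) and 0.68 (SE 0.053), and neither gene's groups overlapped. Per length, Fth1 went from a mean of 11151 to 20157 FPKM and Hmox1 from 684 to 2971 FPKM. Slc40a1, the iron exporter ferroportin, rose by 1.19 (SE 0.06). Tfrc, the transferrin receptor that brings iron in, fell by 0.28, Slc11a2 by 0.26 and Ncoa4, the receptor that delivers ferritin to lysosomes, by 0.30. Slc11a1, the metal transporter of phagosomes, rose by 1.18. Of 28 tested genes in the heme and iron list 12 were higher and 11 lower, with a median log2 fold change of 0.08, and on the FPKM scale 11 were higher and 12 lower, with a median of -0.06.

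Transcripts of cholesterol synthesis genes rose at nearly every step. Of 28 tested genes 27 were higher and none was lower, with a median log2 fold change of 0.89, and on the FPKM scale 24 were higher and 1, Ebp, was lower. The pathway runs from acetyl-CoA through mevalonate and squalene to cholesterol and is driven by SREBP2 (Srebf2). At its first steps Hmgcs1 rose by 0.76. Further along the mevalonate branch Fdps, which makes farnesyl diphosphate, went from 67.6, 63.5 and 62.8 CPM with vehicle to 198, 189 and 172 CPM with 4-OI, at 1.53 (SE 0.055), with no overlap. Mvd rose by 1.44 (SE 0.084) and Idi1 by 1.00. In the sterol branch Sqle rose by 1.02, Lss by 1.37, Cyp51 by 1.04, Nsdhl by 1.11, Hsd17b7 by 1.28 and Sc5d by 1.09. Ebp, the isomerase in the middle of that branch, was not called at -0.06. Srebf2 rose by 0.49 and Insig1, which holds SREBP back in the endoplasmic reticulum, by 0.47.

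Of 13 lipid storage and uptake genes 7 were higher and 2 lower, and of 13 genes of the liver X receptor (LXR) list 10 were higher and 2 lower. Cd36, the fatty acid and oxidised lipoprotein receptor, read 1112, 1176 and 1164 CPM with vehicle and 4665, 4413 and 4219.6 CPM with 4-OI, at 1.95 (SE 0.057). Lipoprotein lipase (Lpl) went from 1353 to 3730.5 CPM, the lysosomal acid lipase Lipa from 1250.2 to 3168 CPM and the lipid droplet coat gene Plin2 from 257 to 1018 CPM, with log2 fold changes of 1.46, 1.34 and 1.98. Nr1h3, which encodes LXRα, fell from 10.5, 11.7 and 16.9 CPM to 3.68, 5.44 and 4.72 CPM, at -1.45 (SE 0.18), with no whole counts in any library. Abca1, its cholesterol export target, fell by 0.38, while Abcg1 stood at 0.47. Mylip and Scd2 rose by 1.98 and 2.04, and Apoe, an abundant secreted lipid carrier, by 0.81. Ch25h, which makes the LXR ligand 25-hydroxycholesterol and is itself induced by interferon, fell from 70.6, 64.5 and 65.1 CPM to 9.36, 6.71 and 7.19 CPM, at -3.10 (SE 0.11). Acss2, which makes acetyl-CoA from acetate for lipid synthesis, rose from 6.85, 8.73 and 7.78 CPM to 91.1, 88.5 and 94.5 CPM, at 3.53 (SE 0.092). Among glycolysis genes 12 of 22 were higher and 3 lower (11 and 6 on the FPKM scale), led by the glucose carrier Slc2a1 at 1.56 and by Pkm, Aldoa and Eno1 at 1.07, 0.90 and 0.85. Hk2, Ldha and Hk3 were not called, at -0.08, 0.05 and -0.09, and the other glucose carrier Slc2a3 fell by 0.91.

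Interferon-induced genes were lower with 4-OI. Of 48 tested effectors 47 were called lower, 27 of them by at least 2-fold, with a median log2 fold change of -1.13, and Isg20 was the exception at -0.16. On the FPKM scale 47 were also lower. Ifit2, which binds viral RNA, read 81.7, 71.5 and 74.6 CPM with vehicle and 10.7, 10.5 and 11.6 CPM with 4-OI, at -2.80 (SE 0.088). Isg15, the ubiquitin-like modifier, read 27.0, 22.4 and 25.9 and 4.83, 5.24 and 4.94 CPM, at -2.31 (SE 0.13). Each vehicle library was above each 4-OI library by over 4 times in both genes. Viperin (Rsad2), Mx1 and the guanylate-binding protein gene Gbp5 fell, at -2.54, -2.13 and -3.28, and the 2′-5′ oligoadenylate synthetase genes fell too, with Oas2 at -1.52, Oas3 at -1.12 and Oasl1 at -0.90. The smallest called falls were those of Samhd1 at -0.13 and Igtp at -0.29. Several families here hold near-identical copies (Oas1a and Oas1g, Ifit3 and Ifit3b, Ifi203, Ifi204 and Ifi211), and their expected counts were not whole in any of the 6 libraries, so the split of reads between copies is uncertain.

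Genes of the interferon pathway upstream of the effectors changed unevenly. Stat2 read 106, 99.6 and 111 CPM with vehicle and 54.2, 63.5 and 60.6 CPM with 4-OI, at -0.82 (SE 0.058), and Irf9 and Irf7 fell by 0.55 and 0.49. These 3 genes are themselves induced by interferon. Across the 14 tested genes for receptors, kinases and factors 2 were higher and 7 lower, and the lowest log2 fold change was -1.42. Ifnar1 fell by 0.21, while Ifnar2, Tyk2, Tbk1 and Irf3 were not called, at -0.09, 0.12, -0.01 and 0.09. Among 11 nucleic acid sensors 9 were lower, among them Zbp1 at -1.95, Dhx58 at -1.51, Ddx58 (RIG-I) at -1.08 and Cgas at -0.42, and Mavs at 0.16 was the 1 called higher on the TMM scale but not on the FPKM scale. Irf8, a lineage factor of macrophages that also acts at interferon genes, moved the other way, from 112, 127 and 124 CPM with vehicle to 243, 239 and 238 CPM with 4-OI, at 0.99 (SE 0.053). Of the feedback genes, Usp18, which removes ISG15 and blunts the receptor, fell by 2.87, and Socs3 rose by 0.98. Ifnb1 was not analysed here.

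The ISRE core, GAAANNGAAA, was searched in the same promoter windows because STAT2 and IRF9 are known to act there. It was in 24 of the 40 effector genes with a window (60.0%), against 3.98% of the 9697 tested genes with a window. The core was in 3.36% of the genes higher by at least 2-fold. Among those lower by at least 2-fold, which hold 27 of the 48 tested effectors, it was in 12.0%. The 10 effectors with the lowest adjusted p and a core wholly before the start site are shown 5′ to 3′ on the strand that carries it, the first core of each gene, with the core in capitals.
Ifit3, chr19:34583363-34583392, minus strand: accagaagagGAAAGTGAAActtaccactg
Ifi203, chr1:173942508-173942537, minus strand: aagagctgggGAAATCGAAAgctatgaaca
Ifi213, chr1:173599326-173599355, minus strand: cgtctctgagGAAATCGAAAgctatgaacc
Trim30a, chr7:104465210-104465239, plus strand: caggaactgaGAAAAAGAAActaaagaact
Ifi211, chr1:173913064-173913093, minus strand: caaagccaggGAAATTGAAAgctatgaacg
Ifit1, chr19:34640775-34640804, minus strand: actgagactgGAAAGTGAAActgaagcctg
Isg15, chr4:156200877-156200906, minus strand: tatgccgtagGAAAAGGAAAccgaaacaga
Rsad2, chr12:26456553-26456582, plus strand: tctgttttctGAAAATGAAAgttggaccag
Gbp3, chr3:142559989-142560018, minus strand: ctgggaaataGAAACTGAAActgtgtcctg
Oas1a, chr5:120907526-120907555, minus strand: cccttctcggGAAATGGAAActgaaaatct
In the 10 cores printed the distance from the core to the start site ran from 10 bases in Oas1a to 146 bases in Ifit3. Isg15 holds 3 overlapping cores in the 250 bases before its start, and they run together as 1 block of capitals (GRCm38.p6 chr4:156200819-156201068, minus strand).
Isg15, 250 bases before the start: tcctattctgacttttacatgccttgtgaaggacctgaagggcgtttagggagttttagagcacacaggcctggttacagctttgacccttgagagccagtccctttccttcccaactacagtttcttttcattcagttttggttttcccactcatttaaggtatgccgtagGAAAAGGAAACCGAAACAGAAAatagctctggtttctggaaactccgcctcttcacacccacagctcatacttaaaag

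Genes of the MHC class I route split. The heavy chain genes H2-D1 and H2-K1 rose by 0.68 (SE 0.051) and 0.33 (SE 0.053), with H2-D1 at 1395, 1492 and 1531 CPM in the vehicle libraries and 2472, 2278 and 2344 CPM in the 4-OI libraries. Several peptide supply genes fell: the immunoproteasome subunits Psmb9, Psmb8 and Psmb10 by 0.73, 0.37 and 0.34, the peptide transporter Tap1 by 0.56 and the trimming enzyme Erap1 by 0.40. The non-classical gene H2-T24 fell by 2.05 and H2-Q4 by 0.79. Of 13 tested class I genes 3 were higher and 9 lower, and on the FPKM scale 2 and 9. Among co-stimulatory genes Cd40 and Cd86 fell by 1.18 and 0.89, and Cd274, the inhibitory ligand PD-L1, rose by 1.22. Class II genes were low, and of 8 tested, Ctss, a protease of the class II route at 2695 CPM, was higher and H2-Ab1 and H2-DMa were lower.

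Chemokine genes moved in both directions, with 4 lower and 1 higher of 9 CC ligands and 3 lower and 5 higher of 10 CXC ligands, against 7 and 1, and 5 and 5, on the FPKM scale. Ccl7 read 418, 383 and 388 CPM with vehicle and 21.4, 16.3 and 20.3 CPM with 4-OI, at -4.37 (SE 0.083). Ccl2, the main ligand of the monocyte receptor CCR2, read 721, 633 and 726 and 105, 101 and 117 CPM, at -2.69 (SE 0.07). Ccl4 and Ccl12 fell, at -2.58 and -4.87, and so did the interferon-induced ligands Cxcl10 and Cxcl9, at -3.74 and -2.09. Ccl5, another interferon-responsive ligand, rose instead, from 4.47, 5.06 and 4.46 CPM to 9.67, 9.67 and 9.98 CPM, at 1.05 (SE 0.16). Ccl9 and Ccl6 were not called, at -0.03 and -0.06, and Ccl3, the neighbour and relative of Ccl4, had a log2 fold change of -0.39 and was not called. The CXC ligands of the neutrophil receptor CXCR2 were near 1 CPM or below with vehicle and rose: Cxcl3 from 0.179, 0.519 and 0.262 CPM to 7.36, 11.7 and 8.26 CPM, Ppbp from 0.583 to 3.69 CPM, Cxcl2 from 1.01 to 2.63 CPM and Cxcl1 from 0.195 to 0.724 CPM. Pf4, an abundant platelet-type chemokine of macrophages, rose by 0.87.

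Receptors of the chemoattractant list fell in 11 of 18 tested cases and rose in 2. Cx3cr1, the fractalkine receptor of resident macrophages and monocytes, read 185, 205 and 192 CPM with vehicle and 3.91, 4.63 and 6.01 CPM with 4-OI, at -5.36 (SE 0.13). The purine receptors P2ry12, P2ry13 and P2ry14 fell by 2.47, 1.55 and 1.55, and P2ry6, from the same family, by 0.20. C3ar1, the complement C3a receptor, fell by 0.31. The formyl peptide receptor Fpr1 rose from 23.4, 25.2 and 31.1 CPM to 90.5, 89.4 and 86.8 CPM, at 1.76 (SE 0.16), and Ccr1 by 0.78. C5ar1, the complement C5a receptor, was not called at 0.07. Beside these changes the neutrophil markers summed to 84.0 to 94.6 CPM with vehicle and 339 to 361 CPM with 4-OI. Most of that sum was Mmp8, at 76.0, 85.6 and 77.0 CPM with vehicle and 294, 318 and 326 CPM with 4-OI. Of the 5 tested, Mmp8 and S100a8 were higher, and Ltf, Ngp and S100a9 were not called. Ly6g was at 0 in all 6 libraries, and Mpo, Elane, Camp and Cxcr2 were under 1 CPM. The part of neutrophils in the chemokine and receptor values was not tested.

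**Figure D3:**
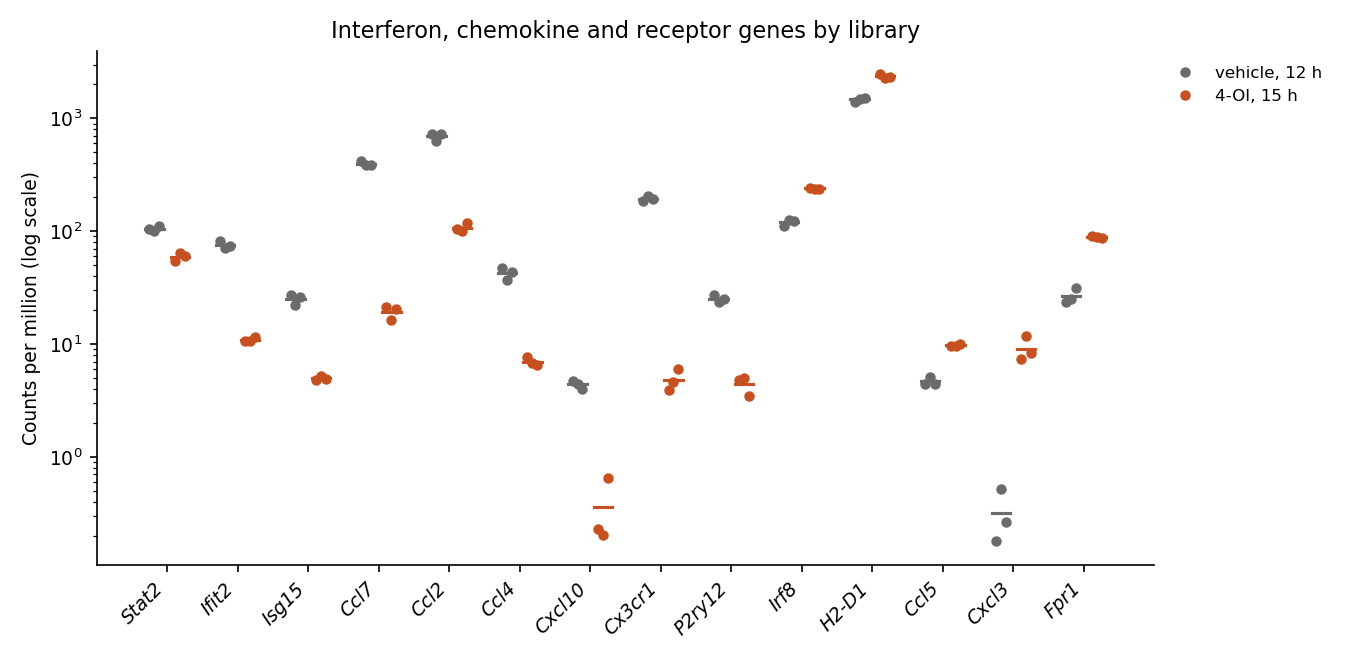
CPM on a log axis for 14 interferon, chemokine and receptor genes, with 1 point per library (grey vehicle, orange 4-OI) and a bar at each group mean. From Stat2 to P2ry12 the 4-OI points lie below the vehicle points, and from Irf8 to Fpr1 above them, with no overlap in any of the 14. These genes were picked for the figure, and the groups did not overlap for 56.5% of all tested genes.

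Cytokine and NF-κB genes showed mixed changes. The IL-1 family ligand Il1f9 (IL-36γ) rose from under 1 CPM in each vehicle library to 11.7, 9.67 and 14.2 CPM, while the receptor antagonist Il1rn fell by 0.96. In the inflammasome Casp4 and the adaptor Pycard fell by 1.23 and 1.00, Nlrp3 fell by 0.17 and Casp1 and Gsdmd were not called, at -0.05 and 0.00. Of 13 NF-κB inhibitors and feedback genes 10 were higher and 3 lower, and on the FPKM scale 7 and 3. Tnfaip3 (A20) and Nfkbia rose by 0.80 and 0.46, Atf3 read 65.2, 72.5 and 73.3 CPM with vehicle and 219.9, 200.4 and 199 CPM with 4-OI, at 1.55 (SE 0.057), and Nfkbiz, the inducible cofactor IκBζ, fell by 1.11. The subunit genes Nfkb1, Nfkb2, Relb and Rel fell by 0.43, 0.41, 0.60 and 0.26, and Rela at 0.13 was not called. In the cytokine part of the NF-κB list 4 of 12 tested genes were higher and 5 lower (3 and 5 on the FPKM scale), beside 25.4% and 25.0% of all tested genes. Their log2 fold changes ran from -1.12 to 0.68, with a median of 0.02. Tnf, Il10 and Osm fell by 0.48, 0.69 and 0.69, and Il1b and Il6 did not pass the filter on low counts. Among AP-1 genes Fosl1 rose from 1.85, 1.82 and 2.54 CPM to 17.5, 16.9 and 17.6 CPM, at 3.11 (SE 0.15), Fos rose by 1.29, and Jun was not called at -0.05.

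Pattern recognition and phagocytic receptors moved in both directions within families. Among 14 C-type lectins 4 were higher and 4 lower, shares near the 25.4% and 25.0% of all tested genes. On the FPKM scale 4 were higher and 8 lower. Clec4n (Dectin-2) read 41.9, 41.9 and 46.8 CPM with vehicle and 522, 485 and 481 CPM with 4-OI, and Clec7a (Dectin-1), the β-glucan receptor, read 105, 105 and 109 and 613, 586 and 599.9 CPM; their log2 fold changes were 3.52 (SE 0.13) and 2.50 (SE 0.14). Clec4d, which pairs with Clec4e at the membrane, rose by 1.49 while Clec4e (Mincle) fell by 1.53. The mannose receptor Mrc1 fell from 1495, 1528 and 1463 CPM to 483, 486 and 482 CPM, at -1.63 (SE 0.046), and the inhibitory receptor Clec12a by 1.26. Among TREM and CD300 receptors 11 of 19 were higher and 5 lower, and 9 and 7 on the FPKM scale. Log2 fold changes in this list ran from -2.97 to 4.51. Treml4 and Cd300a rose by 1.88 and 1.16, and Cd300lf and Treml2 fell by 1.31 and 1.16. Of the scavenger receptors Scarb1 rose by 1.22, Stab1 and Marco fell by 0.94 and 0.67, and Msr1, Lrp1 and Axl were not called, at 0.08, 0.03 and 0.04. The 3 chains of complement C1q fell together, with C1qa at 1166, 1212 and 1077 CPM in vehicle libraries and 606, 579 and 607 CPM in 4-OI libraries and log2 fold changes of -0.95, -0.51 and -0.58 for C1qa, C1qb and C1qc. Fcgr2b, the inhibitory Fc receptor, fell by 0.92 and Fcgr3, an activating one, rose by 0.66. Toll-like receptor genes Tlr2 and Cd14, its co-receptor, fell by 0.89 and 0.67, Tlr13 rose by 0.55, and Tlr4 and Myd88 were not called, at 0.02 and -0.05.

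Of 11 lineage factors 9 were higher, or 6 on the FPKM scale, and Maf and Irf4 were lower. Spi1 (PU.1) rose by 0.34, Cebpa by 1.00 (SE 0.054) and Cebpb by 1.30 (SE 0.075). Maf, a factor that restrains the division of macrophages, fell from 397, 337 and 362 CPM to 130.1, 144 and 147 CPM, at -1.38 (SE 0.055). Adgre1 (F4/80), Cd68, Mertk and Gpnmb were not called, at 0.06, 0.08, 0.08 and 0.05. Of 15 matrix enzymes and inhibitors 7 were higher and 5 lower, beside 25.4% and 25.0% of all tested genes. Mmp12, macrophage elastase, read 119, 139 and 120.2 CPM with vehicle and 1155, 1230.0 and 1174 CPM with 4-OI, at 3.23 (SE 0.13), and Mmp13, Mmp8 and Mmp19 rose by 2.00, 1.97 and 1.27. Plau (urokinase) and Mmp14 fell by 1.17 and 0.77, and Plaur, the receptor of urokinase, rose by 0.91. Eicosanoid genes gave 8 higher and 3 lower of 17, but 6 and 6 on the FPKM scale, with the prostaglandin E2 receptor Ptger2 rising from 14.1, 12.5 and 12.0 CPM to 86.5, 75.3 and 78.2 CPM, Pla2g7 by 1.91 (SE 0.058), the leukotriene scaffold Alox5ap by 1.09 and Pla2g4a, which frees arachidonic acid, by 1.01. Hpgds, prostaglandin D2 synthase, fell by 0.77.

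Cell division genes were lower with 4-OI. All 30 tested mitotic genes were lower, 28 of them by at least 2-fold, with a median log2 fold change of -1.24, and 31 of 33 replication genes were lower, with a median of -0.80. On the FPKM scale the counts were 30 and 33. Mki67, the proliferation marker, read 614, 658 and 650.4 CPM with vehicle and 265, 273 and 285 CPM with 4-OI, at -1.23 (SE 0.052), and Top2a, which untangles chromosomes, read 414, 416 and 402 and 168, 157 and 158 CPM. The motor Kif23, cyclin Ccnb2, survivin (Birc5) and the mitotic factor Foxm1 fell, at -1.86, -1.63, -1.60 and -1.57. Among replication enzymes Tk1 and Tyms, which supply thymidine nucleotides, stood at -1.53 and -1.17, and the helicase subunits between -0.56 for Mcm6 and -0.76 for Mcm5. Pcna, the sliding clamp, was not called at -0.09.

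Of 18 G1 control genes 11 were lower and 2 higher (14 and 1 on the FPKM scale), and both cyclins and kinase inhibitors were among those that fell. Cyclin D1 (Ccnd1), the M-CSF-responsive cyclin, read 982, 964 and 1054 CPM with vehicle and 396, 389 and 433 CPM with 4-OI, at -1.30 (SE 0.051). Its partner Cdk4 and the S-phase cyclin Ccne2 fell, at -0.49 and -0.74. The CDK4 inhibitors Cdkn2c and Cdkn2d fell by 1.81 and 1.25, and Cdkn1a (p21) by 0.24, while Cdkn2b rose from 1.19 to 2.52 CPM and Cdkn1b was not called at -0.12. Of 24 p53 target genes 8 were higher, 7 lower and none by as much as 2-fold, beside 25.4% and 25.0% of all tested genes. On the FPKM scale 4 were higher and 8 lower. DNA methylation genes fell in 5 of 6 cases, with Dnmt1 at -0.38 and Dnmt3a at -0.96, and Dnmt3l, the cofactor without catalytic activity, rose from 3.16, 2.98 and 2.97 CPM to 22.5, 21.7 and 21.7 CPM, at 2.85 (SE 0.12).

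Promoters of mitotic genes are known to carry CCAAT boxes. They also carry a cell cycle gene homology region (CHR), TTTGAA, and it is through the CHR that the DREAM and MYB-MuvB complexes time expression. In the same windows CHR letters were in 19 of the 25 mitotic genes with a window (76.0%), against 14.7% of the 9697 tested genes and 17.9% of 28 replication genes. They were in 33.6% of the genes lower by at least 2-fold, a group that holds 28 of the 30 mitotic genes. CCAAT was in 20 of the 25 (80.0%), against 43.4% of tested genes and 60.7% of replication genes. The 250 bases before the start of Top2a, the mitotic gene of lowest adjusted p with both, hold 8 such matches, given in capitals on the gene's strand, where ATTGG is CCAAT and TTCAAA is the CHR read from the other strand (GRCm38.p6 chr11:99024190-99024439, minus strand).
Top2a, 250 bases before the start: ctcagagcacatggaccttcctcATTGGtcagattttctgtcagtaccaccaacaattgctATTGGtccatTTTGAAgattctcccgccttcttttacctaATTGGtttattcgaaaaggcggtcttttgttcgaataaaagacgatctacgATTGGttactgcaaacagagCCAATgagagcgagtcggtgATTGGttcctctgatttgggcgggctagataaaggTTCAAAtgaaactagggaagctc

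**Figure D4:**
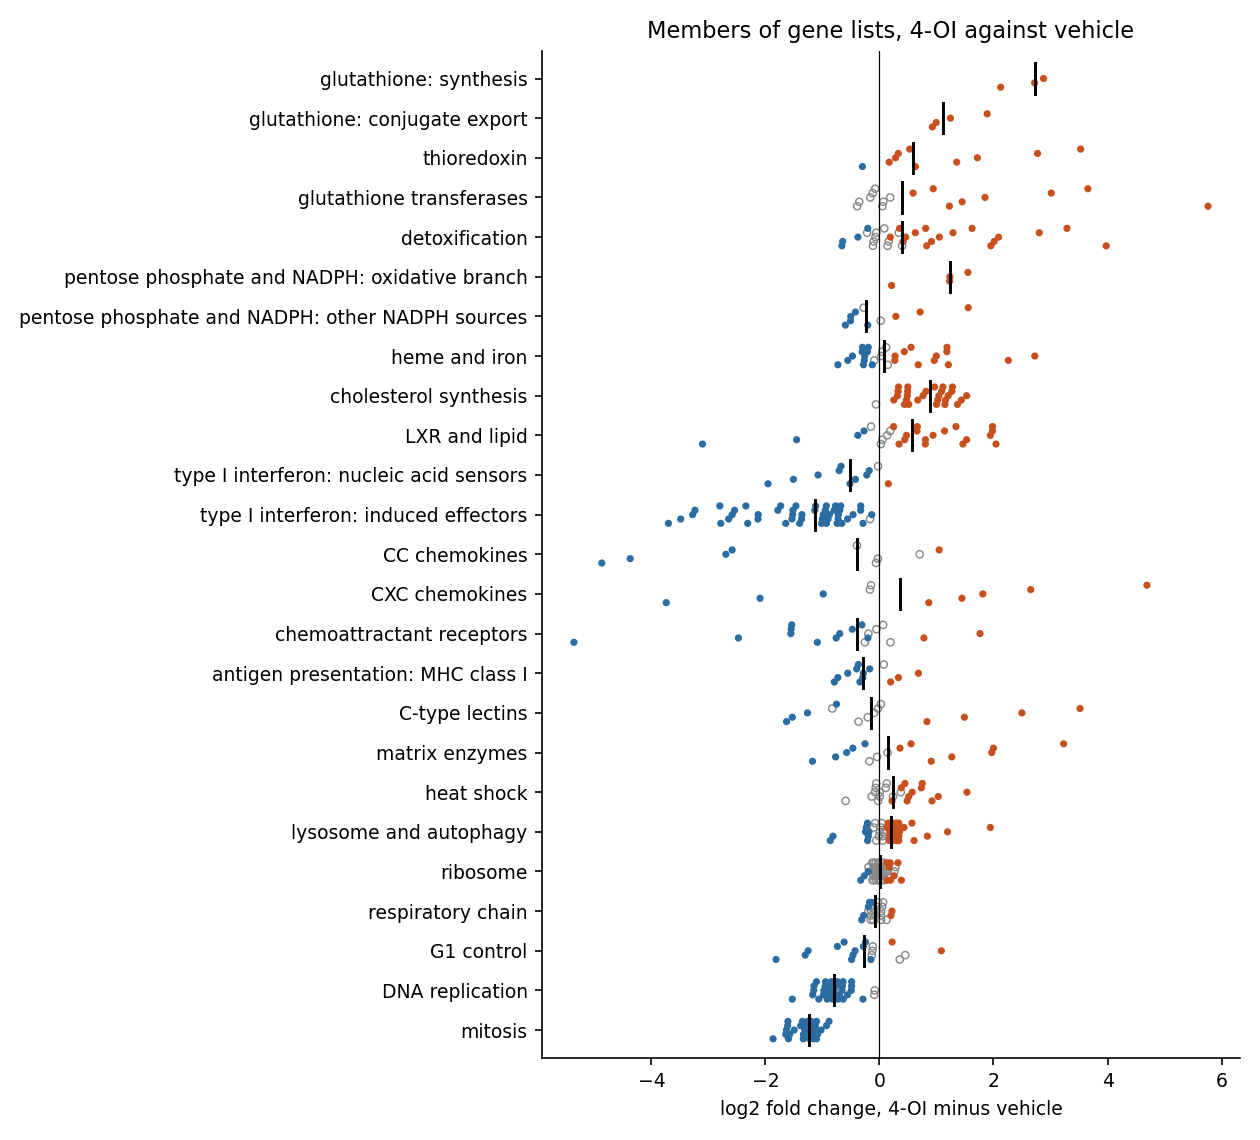
Each point is a tested member of the named list, placed by its log2 fold change of 4-OI over vehicle; orange and blue points were called higher and lower, open grey points were not called, and black bars are list medians. Mitosis, DNA replication and interferon effectors lie left of 0, glutathione synthesis and cholesterol synthesis right of 0, and the chemokine, receptor and lectin lists spread to both sides.

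Lists of general cell functions and stress responses had small medians. Of 46 ribosome genes 35 were not called and of 23 respiratory chain genes 16 were not called, with medians of 0.00 and -0.07, and on the FPKM scale 20 and 10 of them were lower. Further respiratory chain genes and several of the tricarboxylic acid cycle were not analysed here. Endoplasmic reticulum stress genes gave 6 higher and 8 lower of 22, beside 25.4% and 25.0% of all tested genes, with a median of -0.06. Hspa5 (BiP) was down by 0.32, and no member of the list changed by 2-fold. On the FPKM scale 2 were higher and 13 lower. Of 29 tested ATF4 response genes, which include Slc7a11, 11 were higher and 7 lower, against 8 and 10 on the FPKM scale. By at least 2-fold 2 were higher and none lower. Asns, Psat1 and Slc7a5 fell by 0.38, 0.28 and 0.63, and Trib3 and Chac1 were not called, at -0.20 and 0.40. Slc6a9, a glycine transporter, rose from 1.73, 1.12 and 1.57 CPM to 21.2, 25.2 and 20.8 CPM. Cytosolic chaperones gave 11 higher and none lower of 23, but 8 higher and 7 lower on the FPKM scale, with Dnajb4 at 1.53, Bag3 at 0.92 and Hsph1 at 0.57 and the factor Hsf1 not called at 0.11. Lysosome and autophagy genes gave 31 higher and 8 lower of 49, and 14 and 10 on the FPKM scale. Those with larger changes were Gabarapl1 at 1.19, the lysosome factor Tfeb at 0.84 and the selective autophagy receptors Sqstm1 and Optn, which rose by 1.95 and fell by 0.86. Proteasome genes gave 19 higher and 7 lower of 42, against 10 and 12 on the FPKM scale, and Psmd11, a subunit of the regulatory particle, rose the most at 0.85.

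Circadian genes were described because the groups differed in hours. Of 16 tested genes 9 were not called, among them Per1, Per2, Cry1 and Clock at 0.02, 0.04, 0.14 and -0.11. Dbp, an output gene of the clock, fell from 12.1, 11.5 and 8.74 CPM to 4.83, 4.36 and 4.72 CPM, at -1.24 (SE 0.14), and Nfil3, which acts against it, rose from 3.58, 3.68 and 5.51 CPM to 10.6, 9.13 and 11.6 CPM, at 1.33 (SE 0.15). Arntl (BMAL1) fell by 0.40, and Nr1d1, Cry2 and Bhlhe41 stood at 0.42, 0.43 and 0.53. The part of the hours in these or other changes was not tested.

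Called genes were also ranked by fold change and by CPM without regard to any list, with provisional gene names such as Rik and Gm left out. Among genes with at least 5 CPM in both groups, the largest rises were those of Slc7a11, Procr, Acss2, Srxn1, Clec4n, Ptgr1, Mmp12, Met, Gsta3, Gclc, Nqo1, Prdx1, Slpi, Gss and Ptger2. Procr, the endothelial protein C receptor, read 7.81, 7.70 and 9.44 CPM with vehicle and 112, 107 and 109 CPM with 4-OI, at 3.75 (SE 0.084). Met, the receptor of hepatocyte growth factor, rose by 3.20 (SE 0.11) and Slpi, a secreted protease inhibitor, by 2.76 (SE 0.18). The largest falls were those of Ccl7, Ch25h, Ifit2, Ccl2, Rtp4, Ccl4, Rsad2, Cemip, Isg15, D17H6S56E-5, Mx1, Iqgap3, Tmem273, H2-T24 and Zbp1. Cemip, which degrades hyaluronan, fell from 42.7, 37.2 and 44.2 CPM to 8.13, 8.19 and 7.19 CPM, and Iqgap3, a scaffold linked to cell division, from 48.0, 55.6 and 59.1 CPM to 12.5, 11.1 and 14.9 CPM. By CPM gained, Prdx1, Fth1, Ftl1, Hmox1, Cd36, Lyz2, Pkm and Lpl came first. By CPM lost, Actb, Stab1, Tmsb4x, Mrc1, Dab2, Cep85, Sirpa and Ccnd1 came first, with Actb falling from 5590.5, 5447 and 6088 CPM to 3433, 3605 and 3690.2 CPM. The counts of Cep85 were not whole in any of the 6 libraries. Cyren, a regulator of DNA end joining, was the only gene with no counts in one group and at least 2 CPM in the other: it was listed at 0 in the 3 vehicle libraries and had expected counts of 109, 94.8 and 78.2 with 4-OI, at least 129.6-fold higher against a floor of 3 counts over the vehicle group. Its counts were not whole with 4-OI, so part of its reads were shared with other transcripts.

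The mean transcript length of a gene, weighted by its isoforms, was deposited beside each count and was compared in the same way on the log2 scale with limma. Of 7258 genes with at least 50 counts in every library and lengths that varied, 3 were longer with 4-OI (0.0413%) and 9 shorter (0.124%). Chd9, a chromatin remodeller, had a mean length of 4703 ± 169 bases with vehicle and 3479 ± 56.9 bases with 4-OI (SD, n = 3 in each), a log2 difference of -0.43 (adjusted p 0.0462), while its count was not called at 0.03. Others that were shorter were Asap2, Sh2d3c, Tmem161b, Il16, Prdx6, Ap1s2 and Plin2, and Rnf121, Unc5b and Tlr8 were longer, Rnf121 from 2557 ± 34.5 to 3018 ± 53.3 bases. Leaving out any 1 of the 6 libraries left at most 1 longer and 1 shorter gene past the threshold, and fitting all 12 libraries together gave 34 longer and 38 shorter.

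Hemin, the oxidised form of heme, was given to cells of the same kind for 12 h at 15 µM, and the difference between the 2 compounds was tested directly in the same fit, with the hours and the doses unequal. With 4-OI 2500 genes were higher than with hemin (20.6% of those tested) and 2636 were lower (21.7%). Hmox1 was higher with hemin, at 7847 ± 715 CPM (SD, n = 3) against 4792 ± 39.2 CPM with 4-OI (SD, n = 3), a difference of -0.71 (SE 0.059) with an adjusted p of 1.08e-11. Slc40a1 was also higher with hemin, at a difference of -0.78 (SE 0.059), and Slc48a1 at -0.21 (SE 0.055), while Blvrb was higher with 4-OI, at 0.66 (SE 0.054). Fth1 did not pass the test between the compounds, at 0.12 (SE 0.064) and an adjusted p of 0.153, and both stood above vehicle. Spic, the factor of red pulp macrophages that heme induces, was 4.31 ± 0.412 CPM with hemin and 0.658 ± 0.307 CPM with 4-OI (SD, n = 3 in each), a difference of -2.61 (SE 0.31). Acod1 was likewise lower with 4-OI than with hemin, at -1.25 (SE 0.23).

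Most glutathione genes were higher with 4-OI than with hemin. Gclm stood at 1.42 for hemin over vehicle and 2.13 for 4-OI over vehicle, and Gclc at 0.45 and 2.88. Directly tested, 4-OI exceeded hemin by 0.71 (SE 0.05) in Gclm and by 2.42 (SE 0.052) in Gclc. Srxn1, Gss and Nqo1 exceeded hemin by 2.68, 2.06 and 2.00, Txnrd1, Cat and Abcc1 by 0.95, 0.95 and 1.04, and Prdx6 and G6pdx by only 0.19 and 0.37. Of 23 tested glutathione genes 14 were higher and 3 lower than with hemin, and of 28 cholesterol genes 25 were higher and none lower. Fdps was 58.4 ± 2.01 CPM with hemin (SD, n = 3), so that 4-OI exceeded it by 1.68 (SE 0.057) on the log2 scale, and its change from vehicle with hemin was -0.15. Plin2 and Cd36 also lay higher with 4-OI, by 2.21 and 1.72. Of the 48 interferon effectors 46 were lower with 4-OI than with hemin, with a median of -0.37 for hemin over vehicle beside -1.13 for 4-OI over vehicle. All 30 mitotic genes and 32 of 33 replication genes were lower with 4-OI than with hemin. Ccl2 and Cx3cr1, at -0.23 and 0.14 for hemin over vehicle, had log2 differences of -2.46 and -5.50 between 4-OI and hemin. The comparisons with vehicle share the 3 vehicle libraries, so their values are set side by side and not correlated.

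**Figure D5:**
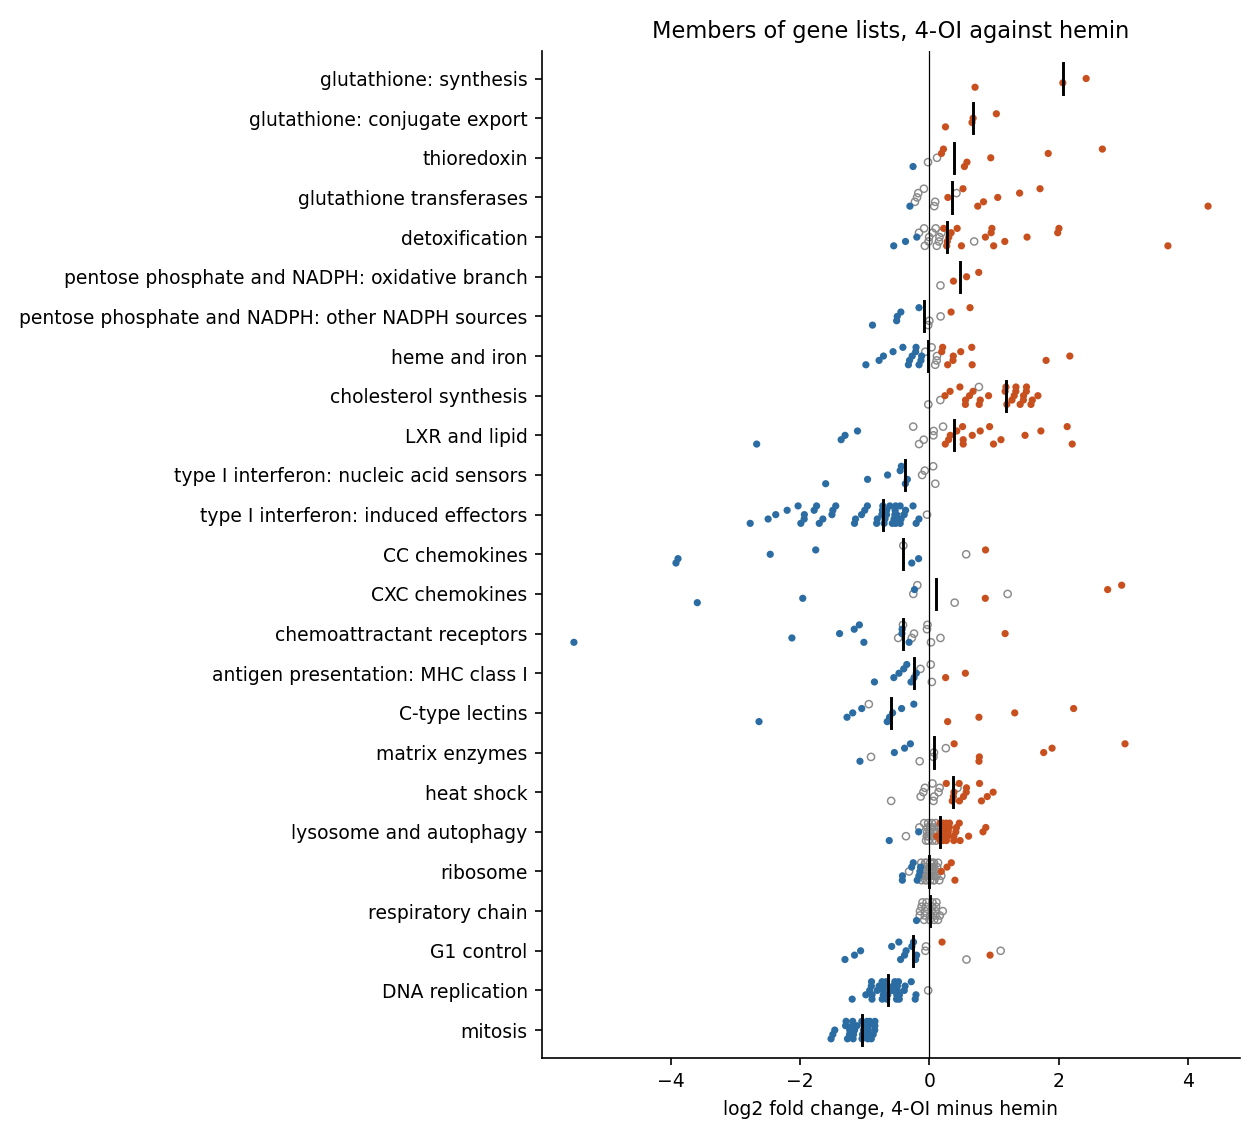
Each point is a tested member of the named list, placed by its log2 fold change of 4-OI over hemin in the same fit; orange and blue points passed the test as higher and lower with 4-OI, open grey points did not, and black bars are list medians. Cholesterol synthesis and glutathione synthesis lie right of 0 and mitosis, replication and interferon effectors left of 0, while heme and iron genes fall on both sides, with 10 higher and 13 lower.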

How the data were processed

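RNA from mouse bone marrow derived macrophages was sequenced in 12 libraries, and the tables hold, per the file headers, an expected count, an FPKM value and an isoform-weighted length for each gene. The submitters' processing notes name HISAT2, StringTie, Bowtie2, RSEM and the genome build GRCm39 (mm39); the role and version of each tool are not given in the sources used here. An expected count splits reads that match several transcripts, so deposited counts of near-identical genes are estimates, and the deposited FPKM values divide by library total and length. Expected counts were rounded to whole numbers and fitted with edgeR 4.0.16 (R 4.3.3): TMM scaling, edgeR's default low-count filter (12148 genes kept), and a robust quasi-likelihood fit of all 12 libraries by group, so that all groups share 1 estimate of spread. The threshold was 0.05 for p-values adjusted over every tested gene by Benjamini and Hochberg's method. Deposited lengths were compared on the log2 scale with limma 3.58.1 in the 6 libraries, for genes with at least 50 counts in each. DESeq2 1.42.0, other scalings and filters, limma on log2(FPKM + 1), a replicate term and leaving out each library were the alternatives. The pipeline was tested on simulated counts with known changes. Motifs were matched by letters in RefSeq GRCm38.p6 promoter windows, whose build differs from that of the counts; windows were joined by gene symbol only.

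The genes named are the 15 called rises and 15 called falls of largest fold change among genes with at least 5 CPM in both groups, the 8 of largest rise and fall in CPM, genes at 0 in 1 group and at least 2 CPM in the other, for length up to 6 a direction, Acod1, Hmox1 and Nqo1, and, within each gene list, up to 5 a direction by adjusted p, members against the majority and defining regulators; other list members were named after their values were seen. Provisional gene names (such as Rik, Gm and LOC) were left out of the rankings by fold change and CPM, and for length. The lists themselves, and the choice of this comparison, were made with earlier results of these data known. Replicate pairs within a group differed by more than sampling noise, so each library counts once. No correction for hours was possible. Values of some list members are not reported here, though the list counts include them.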

Additional observations from a re-analysis of the deposited data

How the results depend on the processing

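With limma on log2(FPKM + 1) and log2(FPKM + 0.1), 1743 and 1762 genes were higher with 4-OI, 4608 and 4640 were lower, and 188 and 290 were higher by at least 2-fold. On the first of these scales 349 were lower by at least 2-fold. The other scalings, filters and fits that were run left each gene count within 1.5 times its value, and leaving out 1 library at a time gave 2711 to 2911 higher and 2682 to 2883 lower genes. Of the genes named, Rnf121 and Gsdmd changed sign in expression. For Rnf121, named above only for its length, the expression log2 fold change turned to -0.088 and -0.093 on the FPKM scales and was not called there. For Gsdmd, which was not called on the TMM scale, it turned to -0.14 on the second FPKM scale. Transcript length rested on few libraries: longer and shorter genes numbered 1 and 0 with at least 10 counts in each library, 34 and 38 with all 12 libraries fitted, and 0 to 1 and 0 to 1 when any single library, of either group, was left out. Replicate numbers are shared between groups in the labels, but deviations of same-numbered libraries correlated at 0.067, -0.075 and -0.059, so the numbers were not taken to pair them. With a replicate block 3055 genes were higher and 3092 lower, and 0 genes were longer and 0 shorter by limma. The hours, the unstated origin of the replicates and the scaling limit all values given.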

Other observations

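Several smaller gene lists not described above also held called genes. Of 15 RGS and G protein genes 9 were lower with 4-OI and 1, Gpr35, was higher, beside 25.0% and 25.4% of all tested genes. Rgs1, which shortens chemokine receptor signals, read 12.7, 14.1 and 15.4 CPM with vehicle and 3.84, 3.36 and 4.08 CPM with 4-OI, at a log2 fold change of -1.91 (SE 0.15) and an adjusted p of 2.42e-13 by edgeR's quasi-likelihood test. Gpr84, a receptor for medium-chain fatty acids, stood at -0.71. In the metal list the zinc importer Slc39a8 read 26.3, 25.0 and 25.9 CPM with vehicle and 9.90, 8.06 and 7.84 CPM with 4-OI, at -1.57 (SE 0.11), and the zinc exporter Slc30a1 and the importer Slc39a10 stood at 0.94 and 0.98. Metallothionein genes Mt1 and Mt2, which bind zinc and are often raised by metals and oxidants, stood at -0.35 and -0.97. Of 20 cell death genes 4 were higher and 6 lower, and 2 and 8 on the log2(FPKM + 1) scale, shares near those over all tested genes. The survival genes Bcl2l1 and Mcl1 stood at -0.47 and -0.28. These genes were named after their values were seen.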
